A study of Mus musculus with 13 samples.

Results

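This account describes 5150 places in the mouse liver genome where the corepressor NCOR1 was bound and no glucocorticoid receptor (GR) peak lay within 500 bp. They were chosen by measured values: peaks of the NCOR1 list from control liver after vehicle were kept when they overlapped an NCOR1 peak of control liver after dexamethasone, overlapped none of the NCOR1 knockout list, and had no peak of any of the 4 GR lists within 500 bp, centre to centre. Of 39458 NCOR1 peaks in control vehicle liver, 20103 met both NCOR1 conditions, and 5150 of those lacked GR. The other 14953 are called NCOR1 sites with GR below. The term NCOR1 sites means the 20103, and NCOR1 peaks that failed either NCOR1 condition are not counted among them. All livers came from male mice and were taken at zeitgeber time 10, 2 h after an intraperitoneal injection of vehicle or of dexamethasone (1 mg/kg), a synthetic glucocorticoid that binds GR. Control mice are labelled GFP, and the knockout mice (dKO), whose knockout includes NCOR1, are labelled CRE. The labels used here do not say which promoter or vector delivered Cre, nor in which liver cells it acted. GR was mapped by chromatin immunoprecipitation and sequencing (ChIP-seq) in both genotypes under both treatments, with 2 libraries for each of these 4 groups. For NCOR1 there was 1 library of control liver after vehicle, 2 of control liver after dexamethasone and 1 of dKO liver after vehicle.

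NCOR1 does not touch DNA itself. It is a large docking protein that binds nuclear receptors, classically when they carry no activating ligand, and brings a deacetylase complex built around HDAC3 and TBL1XR1 to their target genes. In liver its known partners include the REV-ERB receptors of the clock, the thyroid hormone receptors, the liver X receptors and PPARalpha, which together control lipogenesis, cholesterol handling and fatty acid oxidation. Many of these receptors read the 6-base element AGGTCA, whereas GR reads a palindrome of AGAACA-like elements.

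Some of these sites lie on a gene start, where the DNA sequence can be shown. Below are the RefSeq start windows (assembly GRCm38.p6) of 6 genes whose start carried such a site, each from 250 bases before the start to 30 bases from it, 5′ to 3′ on the gene's strand. Capitals mark the nuclear receptor element AGGTCA (or TGACCT on the other strand) and the GC box GGGCGG (or CCGCCC). They were chosen after their values were seen: Plin5, Slc25a47 and Mtarc1 for strong sites whose window holds the nuclear receptor element, Fabp1 as a fatty acid gene bound at its start, and Foxa2 and Nadk as starts rich in CpG with a GC box and no such element. They are examples and not a sample of the set.
Plin5: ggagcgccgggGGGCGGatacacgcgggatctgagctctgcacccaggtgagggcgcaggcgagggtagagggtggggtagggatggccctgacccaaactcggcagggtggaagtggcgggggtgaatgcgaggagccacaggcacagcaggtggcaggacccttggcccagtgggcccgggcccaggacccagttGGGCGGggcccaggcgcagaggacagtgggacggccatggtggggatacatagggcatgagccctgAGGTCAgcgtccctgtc
Slc25a47: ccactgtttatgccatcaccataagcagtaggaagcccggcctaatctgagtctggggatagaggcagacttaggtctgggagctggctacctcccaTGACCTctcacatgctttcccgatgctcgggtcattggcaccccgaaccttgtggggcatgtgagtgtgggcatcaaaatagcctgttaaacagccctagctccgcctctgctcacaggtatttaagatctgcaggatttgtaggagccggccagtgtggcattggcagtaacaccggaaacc
Mtarc1: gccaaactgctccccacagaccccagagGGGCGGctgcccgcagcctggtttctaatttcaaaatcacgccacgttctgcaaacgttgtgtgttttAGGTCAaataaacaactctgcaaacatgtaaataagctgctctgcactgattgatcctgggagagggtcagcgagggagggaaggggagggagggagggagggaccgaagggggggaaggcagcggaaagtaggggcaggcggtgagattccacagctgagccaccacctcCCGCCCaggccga
Fabp1: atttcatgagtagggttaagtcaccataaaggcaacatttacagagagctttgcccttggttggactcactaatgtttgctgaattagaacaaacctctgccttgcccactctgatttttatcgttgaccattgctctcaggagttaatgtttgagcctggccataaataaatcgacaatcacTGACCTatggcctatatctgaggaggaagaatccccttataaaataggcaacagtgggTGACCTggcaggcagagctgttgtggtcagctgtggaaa
Foxa2: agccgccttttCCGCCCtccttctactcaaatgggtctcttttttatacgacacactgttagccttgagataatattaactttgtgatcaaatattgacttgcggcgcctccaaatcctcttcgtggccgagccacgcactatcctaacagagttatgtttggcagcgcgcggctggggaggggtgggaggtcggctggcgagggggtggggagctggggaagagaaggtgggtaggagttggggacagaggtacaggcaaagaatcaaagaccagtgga
Nadk: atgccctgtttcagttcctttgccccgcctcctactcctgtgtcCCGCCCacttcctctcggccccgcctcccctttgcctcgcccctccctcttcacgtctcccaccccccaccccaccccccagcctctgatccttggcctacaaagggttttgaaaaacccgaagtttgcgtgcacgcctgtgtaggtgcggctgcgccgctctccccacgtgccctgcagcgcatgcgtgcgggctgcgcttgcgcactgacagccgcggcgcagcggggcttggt

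These windows lie at chr17:56117269-56117548 (minus strand) for Plin5, chr12:108850879-108851158 (plus) for Slc25a47 and chr1:184811271-184811550 (minus) for Mtarc1. They lie at chr6:71199629-71199908 (plus) for Fabp1, chr2:148045435-148045714 (minus) for Foxa2 and chr4:155563565-155563844 (plus) for Nadk. In Plin5, which codes for a coat protein of lipid droplets, the AGGTCA began 14 bases from the start and lay inside the 200 bp NCOR1 peak, as did the GC box 53 bases upstream. In Slc25a47, a mitochondrial carrier of the liver, the TGACCT lay 153 bases upstream of the start and inside the peak. Fabp1, the fatty acid carrier of the hepatocyte cytoplasm, held TGACCT 67 and 9 bases upstream, both inside the peak. In Mtarc1, a mitochondrial reductase, the AGGTCA 154 bases upstream was not wholly inside the peak, and the GC box at base 18 was. The GC box of Nadk, an NAD kinase, 206 bases upstream, was inside the peak, and that of Foxa2, a liver pioneer transcription factor, 239 bases upstream, was outside. A match of letters is a description of the sequence and not a measured contact.

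Control vehicle NCOR1 tag counts at these 6 starts, in tags per 10 M sequenced tags, were 109.7 at Plin5, 87.8 at Slc25a47, 58.8 at Mtarc1, 36.9 at Fabp1, 45.9 at Foxa2 and 41.9 at Nadk. After dexamethasone they were 65.7, 63.8, 22.2, 22.1, 18.1 and 19.5 in the same order. All 6 were lower after dexamethasone, which was the usual direction for strong NCOR1 peaks (below).

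Each condition of the rule removed a different part of the NCOR1 list. Of the 39458 control vehicle peaks, 26532 (67.2%) overlapped a dexamethasone peak, 31361 (79.5%) overlapped no dKO peak, 15216 (38.6%) had no GR peak within 500 bp, and 20103 (50.9%) met both NCOR1 conditions. The 5150 sites without GR were 25.6% of these 20103 and 13.1% of the whole list. Taken singly, the control vehicle GR list left 8791 of the 20103 (43.7%) without a GR peak, and the control dexamethasone GR list left 7304 (36.3%). The dKO GR lists left more: 13004 (64.7%) after vehicle and 11496 (57.2%) after dexamethasone. These shares are set by the rule and carry no test. The number depends on which GR peaks are used: with the 2 vehicle GR lists alone it would be 7931, and with each GR list cut to the length of the shortest, 7923.

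The deposited lists pool replicates, and the spread between animals is therefore unknown for all values. The NCOR1 lists rested on 17.8 M (control vehicle), 36.9 M (control dexamethasone) and 17.5 M (dKO vehicle) tags and the GR lists on 27.5 to 31.9 M. The weakest peaks called in the GR lists had 4.16 to 4.55 tags per 10 M, so weaker GR binding at a site was not detectable at this depth. The dKO vehicle NCOR1 list still held 17282 peaks, and 8097 control vehicle peaks overlapped it. The NCOR1 libraries were size selected and the GR libraries were not. Intervals below are exact 95% Clopper-Pearson intervals and cover counting error only. In bulk liver, binding in fewer cells and weaker binding per cell cannot be told apart.

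NCOR1 sites without GR were weaker than those with GR. Their control vehicle tag count ran from 5.34 to 238.3, with quartiles of 9.85 and 23.6 and a median of 14.9, against a median of 20.8 at the sites with GR. All 39458 NCOR1 control vehicle peaks had a median of 15.5, so the sites without GR were near the typical peak of that list. The authors' fold over input had a median of 11.4 without GR and 16.7 with GR, and the fold over the surrounding 10 kb was 8.06 and 10.9. The spans overlapped almost completely, since sites with GR ran from 5.34 to 304.4 tags. Cutting all 39458 NCOR1 peaks into 5 equal classes of tag count showed the same as a gradient. In class 1, the weakest, 1011 of 2546 NCOR1 sites lacked GR (39.7%, interval 37.8 to 41.6%). The share was 33.2% in class 2 (1108 of 3334), 28.5% in class 3 (1156 of 4062) and 23.0% in class 4 (1126 of 4891). In class 5, from 30.4 tags upward, 749 of 5270 lacked GR (14.2%, interval 13.3 to 15.2%). The share was lower at every step, and the intervals of neighbouring classes did not overlap. The NCOR1 conditions had kept 32.3% of the peaks of class 1 and 66.8% of those of class 5. The classes were thus not thinned alike, and the part of this in the gradient was not tested.

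**Figure D1:**
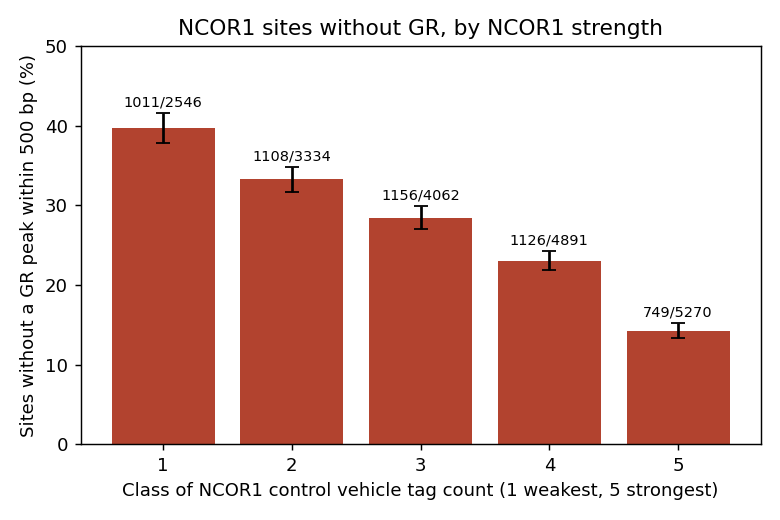
Share of NCOR1 sites without a GR peak within 500 bp (%, y axis from 0) in 5 equal classes of control vehicle NCOR1 tag count (x axis, 1 weakest, 5 strongest). The classes cut all 39458 NCOR1 peaks, and the counts hold only those that met both NCOR1 conditions. Bars carry exact 95% intervals and the counts; the share goes from 39.7% in class 1 to 14.2% in class 5.

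Strength did not exclude strong sites from the set. The strongest was inside Mad1l1, a spindle checkpoint gene (chr5:140204121-140204321), with 238.3 tags per 10 M after vehicle and 112.4 after dexamethasone. Tsku, a protein secreted by the liver, held 2 of the 12 strongest: 140.1 tags after vehicle and 82.6 after dexamethasone at chr7:98351657-98351857, and 94.2 and 47.3 at chr7:98358150-98358350. A site 12.7 kb from Spag9, a scaffold of JNK signalling, had 128.6 and 54 tags. Vehicle was the higher of the pair at each of these 4 sites.

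The other 8 of the 12 strongest sites follow. Inside Ehhadh, the bifunctional enzyme of peroxisomal fatty acid oxidation (chr16:21782902-21783102), the tag count was 117.9 after vehicle and 152.6 after dexamethasone, the highest of all 5150 sites in the dexamethasone list. At the Plin5 start shown above the pair was 109.7 and 65.7. Scp2, the peroxisomal sterol carrier protein, held a site of 106.6 and 71.7 tags. Next to Gpat4, which starts glycerolipid synthesis, the counts were 95.1 and 91.4, the closest of these pairs. Inside Tymp, thymidine phosphorylase, they were 108.9 and 65.6, and next to Creld2, a chaperone of the endoplasmic reticulum, 95.9 and 108.6. Nr1i2, the xenobiotic receptor PXR, held 94.5 and 66.4. The last of the 12, at chr3:52618993-52619193, had no protein-coding gene within 100 kb and 100.7 and 73.8 tags. Ehhadh and Creld2 were thus the 2 of 12 with a higher count after dexamethasone. In class 5 as a whole 60 of 749 sites without GR (8.01%) were higher.

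Several of these strong sites were close to strong GR binding. The Nr1i2 site had a GR peak 1043 to 1055 bp away in all 4 GR lists, with 85.9 to 146.4 GR tags per 10 M. The site on chromosome 3 had one 1484 to 1509 bp away in all 4 lists, with 93.1 to 165.8 tags. Beside Gpat4 a GR peak about 1.15 kb away had 11.1 tags after vehicle and 132 after dexamethasone in control liver, and 10.1 and 62.8 in dKO liver. Ehhadh differed: its nearest GR peak, 2017 bp away, was in the control dexamethasone list with 9.99 tags, and the nearest in the other lists were 23999 to 35852 bp away. The 6 strongest sites by dexamethasone tag count were Ehhadh, Mad1l1, Creld2, Gpat4, Arl4a (87.4) and Tsku.

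The median distance from a site without GR to the nearest GR peak was 5.0005 kb. There were 572 between 500 and 1000 bp, 775 between 1000 and 2000, 1228 between 2000 and 5000, and 968 between 5000 and 10000 bp. A further 1359 were between 10000 and 50000 bp, 172 between 50000 and 100000 bp, and 76 farther. Sites nearer to GR were the stronger: the median tag count was 18 to 18.8 in the classes up to 5000 bp, 14.1 in the next, and 11.5 between 10000 and 50000 bp. The nearest NCOR1 site with GR was a median of 16.7 kb away, and 1167 sites without GR (22.7%) had one within 5000 bp. Far from any GR peak, Thrap3, which codes for a protein of transcription and splicing, held a site of 48.7 tags 57.4 kb from GR. Fut8, a fucosyltransferase, held one of 43.9 tags at 88.2 kb, and Thsd7a one of 31.5 tags at 178 kb.

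Sites on either side of the 500 bp limit were alike in strength. The 146 sites in the 100 bp beyond the limit had a median of 16.6 tags, and the 163 NCOR1 sites with GR in the 100 bp up to it had 15.8. Just outside were sites at Ginm1 (503 bp, 7.31 tags), near Olfr16 (504 bp, 6.19 tags) and in Nfia (504 bp, 35.2 tags). Just inside, at 500 bp, were Fars2 (14.6 tags), Rpl7l1 (10.7) and Atp5a1 (18.8). The limit thus cuts through a continuous range.

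NCOR1 tag counts were lower after dexamethasone at most of the sites, by nearly the same median as at sites with GR. The median log2 ratio of dexamethasone to vehicle tag counts was -0.34 without GR and -0.35 with GR, and -0.31 over all shared NCOR1 peaks. Quartiles without GR were -0.72 and 0, and the dexamethasone count was the higher at 1277 of the 5150 sites (24.8%). That share was 27.9% at sites with GR and 28.4% over all shared NCOR1 peaks. In class 5 it was 8.01% without GR and 11.4% with GR. Centred on all shared peaks, the median without GR was -0.03. The ratio sets 1 library against 2, each list normalized to its own depth, so the common shift cannot be told apart from a difference between libraries, and no test was possible.

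Within strength classes the sites without GR had the lower ratio each time. From class 1 to class 5 the medians without GR were -0.03, -0.23, -0.37, -0.52 and -0.71. With GR they were 0.17, -0.07, -0.26, -0.47 and -0.63. The difference, without minus with GR, was -0.21 in class 1, -0.17 in class 2, -0.11 in class 3, -0.05 in class 4 and -0.08 in class 5. The fall from class to class is partly built in, because the classes are cut on the vehicle count that is the ratio's denominator. NCOR1 sites with a GR peak in control liver after dexamethasone and none after vehicle, 3056 in all and a subset chosen after the values were seen, had a median of -0.08. In class 5 that subset stood at -0.43, against -0.71 without GR.

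**Figure D2:**
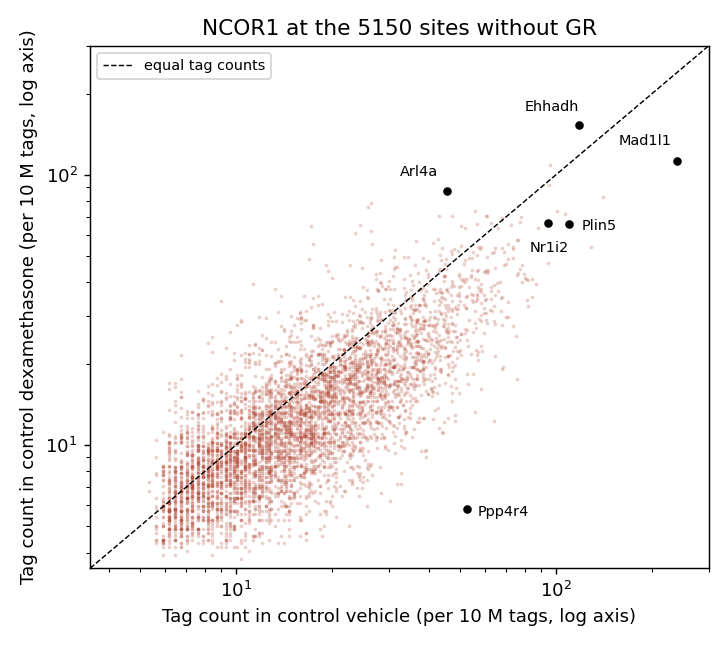
NCOR1 tag count after vehicle (x axis) and after dexamethasone (y axis) at each of the 5150 sites without GR, both in tags per 10 M on log axes, with the line of equal counts. Most points lie under the line; Ehhadh (117.9 and 152.6) and Arl4a (45.6 and 87.4) lie above it, and Ppp4r4 (52.6 and 5.82) is the farthest below among strong sites.

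Individual strong sites differed widely between the vehicle and dexamethasone lists. Among sites of class 5 the lowest ratio was inside Ppp4r4, a regulatory subunit of protein phosphatase 4, with 52.6 tags after vehicle and 5.82 after dexamethasone (log2 ratio -3.18). Next came sites near Tubg1, gamma-tubulin (64.1 and 12.3, -2.38), and in Cmip (32.9 and 7.18, -2.20), Fndc3b (31.8 and 7.18, -2.15) and Zfpm1, a cofactor of GATA factors (39.4 and 9.07, -2.12). The highest ratio was at a site 77.4 kb from Arl4a, a small GTPase, with 45.6 and 87.4 tags (0.94). Fosl2, an AP-1 subunit, followed with 31.5 and 52.8 (0.75), then LOC108168726 with 43 and 70.2 (0.71) and a site near Trim80 with 31.2 and 49.6 (0.67). The fifth, at chr13:31346347-31346547 with no protein-coding gene within 100 kb, had 36.6 and 56.8 (0.63). The 5 low ratios lay farther from 0 than the 5 high ones, but the median of class 5 was itself -0.71. That asymmetry is partly built in, because the class is cut on the vehicle count that is the ratio's denominator. With pooled libraries neither the low nor the high ratios can be set against a spread between animals.

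Sites without GR lay on gene starts more often than sites with GR did. Within 1000 bp of a RefSeq start were 807 of 4992 sites without GR (16.2%, interval 15.2 to 17.2%) and 1615 of 14452 with GR (11.2%, interval 10.7 to 11.7%). Within 150 bp the shares were 8.55% and 5.38%. Over all NCOR1 control vehicle peaks the shares were higher than in either set, 18.9% within 1000 bp and 10.5% within 150 bp. Peaks that were also in the dKO list, a set added after the values were seen, stood at 34.4% within 1000 bp. The other 158 sites lie on chromosome 18, which was not used for starts. Read the other way, 35.4% of NCOR1 sites that met both NCOR1 conditions and lay within 150 bp of a start lacked GR (427 of 1205). The share was 28.4% between 1000 and 5000 bp and 22.3% beyond 50000 bp. Inside protein-coding gene bodies were 3014 sites without GR (58.5%) and 8210 with GR (54.9%).

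The difference was present within the 3 stronger classes of tag count. Within 1000 bp of a start were 18.3%, 19.1% and 15.2% of the sites without GR in classes 3, 4 and 5, and 11.2%, 10.3% and 9.47% of those with GR, with intervals that did not overlap. In the 2 weakest classes the shares were close: 11.4% and 16.0% without GR, 11.8% and 15.7% with GR.

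**Figure D3:**
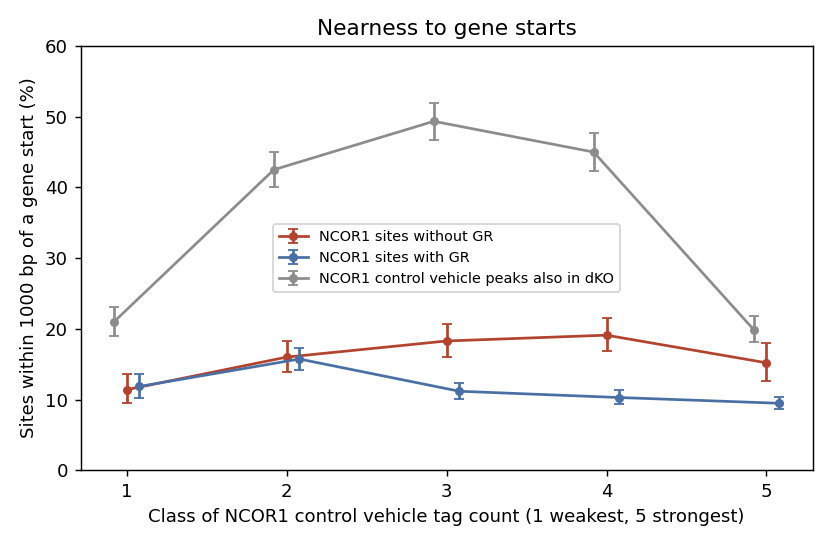
Share of sites within 1000 bp of a gene start (%) by class of control vehicle NCOR1 tag count, for NCOR1 sites without GR, with GR and peaks also found in dKO; error bars are exact 95% intervals. The sites without GR (18.3% in class 3) lie above those with GR (11.2%) from class 3 upward, and peaks also found in dKO reach 49.3%.

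The 8 strongest sites at starts (centre within 150 bp) began with Plin5 and Slc25a47. Gapdh, the glycolytic dehydrogenase, had 65.8 tags after vehicle and 37.1 after dexamethasone. At the start of Angptl8, a secreted regulator of lipoprotein lipase that lies within the Dock6 gene, the counts were 64.4 and 35.8. Osgin1, a gene of the oxidative stress response, had 64.1 and 32.6, and Rab43, a small GTPase, 60.5 and 30.7. Mtarc1 had 58.8 and 22.2. Ambp, the precursor of alpha-1-microglobulin and bikunin, had 56.3 and 34.1. All 8 were lower after dexamethasone, as were most class 5 sites without GR, of which 60 of 749 (8.01%) were higher.

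The starts bound without GR were rich in CpG. Of 32817 RefSeq windows of 300 bases, 250 before and 50 from the start, 484 held the centre of a site without GR and 869 one with GR. Those 484 windows stand for 420 sites, since a site can lie in windows of several transcripts or genes. A window is called CpG-rich where CpG is above 0.6 of what its C and G content gives, a class added after the values were seen. CpG-rich were 69.0% of the windows without GR (334 of 484, interval 64.7 to 73.1%), 46.1% with GR, 85.5% with a peak also in dKO, 29.6% with no NCOR1 peak and 35.8% of all windows. The share differed with strength: 58.2% above the median tag count of these windows and 79.6% up to it.

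Motifs followed base composition in part. All were searched on both strands as exact letters, N standing for any base. The GC box GGGCGG, read by SP and KLF factors, was in 63.0% of the windows without GR, 44.4% with GR and 35.6% of all windows. Among CpG-rich windows the same shares were 77.8%, 76.3% and, with no NCOR1 peak, 70.8%, so that contrast was small within the class. In CpG-poor windows it was in 45 of 150 without GR and 80 of 468 (17.1%) with GR, with intervals apart (22.8 to 38.0% and 13.8 to 20.8%). The E-box CACGTG, the element of CLOCK, MYC and USF proteins, was in 14.05% without GR, 8.86% with GR and 7.15% of all. The ETS element CCGGAAGT was in 10.1%, 5.87% and 3.89%. In windows with a peak also in dKO the GC box was in 68.8%, the E-box in 14.21% and the ETS element in 14.02%. High shares of these motifs were thus not particular to windows without GR. In CpG-poor windows with a peak also in dKO the GC box was in 40.2%. In the CpG-rich ones the GC box (73.7%) and the E-box (14.71%) were below the shares without GR. The intervals without and with GR were apart for the GC box over all windows and overlapped for the ETS element. For the E-box they were barely apart (11.1 to 17.5% and 7.06 to 10.95%). All window intervals count each window as separate, although the 484 without GR stand for 420 sites. They can thus be too narrow, and the small gap for the E-box is not firm. Within each CpG class the E-box intervals overlapped, at 16.2% without and 12.7% with GR in CpG-rich windows and 9.33% and 5.56% in CpG-poor ones.

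The nuclear receptor element and the C/EBP element were less frequent at starts without GR than at those with GR. AGGTCA was in 15.9% of windows without GR (77 of 484, interval 12.8 to 19.5%), 26.6% with GR and 16.3% of all. With a peak also in dKO it was in 15.0%. In CpG-poor windows it was in 30.7% without GR, 36.8% with GR and 19.4% with no NCOR1 peak. In CpG-rich windows the shares were 9.28%, 14.7% and 8.51%. Within each CpG class the intervals without and with GR overlapped. The C/EBP element TTGCNNAA was in 11.2% without GR, 19.6% with GR, 8.04% with a peak also in dKO and 10.8% of all. Within each CpG class its intervals overlapped too, at 7.19% without and 9.98% with GR in CpG-rich windows and 20.0% and 27.8% in CpG-poor ones. The FOXA element TGTTTAC was in 4.13%, 7.25% and 3.65%. The loose GR element ACANNNTGT was in 4.13% of windows without GR, 7.36% with GR and 6.85% of all. Within the CpG classes these shares were closer, at 8.67%, 11.1% and 9.18% in CpG-poor windows and 2.10%, 2.99% and 2.66% in CpG-rich ones. For the FOXA and the GR element the intervals without and with GR overlapped.

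The strongest sites were not typical of the set. Of the 20 strongest sites in start windows, 11 held AGGTCA, 7 held a GC box and 3 were CpG-rich. NTAGGTCA, the core of the REV-ERB and ROR element, was in 12 of the 484 windows (2.48%, all windows 2.59%), among them Mtarc1, Gjb2, Stat5a and Fabp1. The direct repeat of AGGTCA with a spacer of 1 base, which PPARalpha reads, was in 2, those of Etohd2 and Isca1, each bound at 13.2 tags. The motifs overlap in letters: every NTAGGTCA and every direct repeat also counts as AGGTCA.

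**Figure D4:**
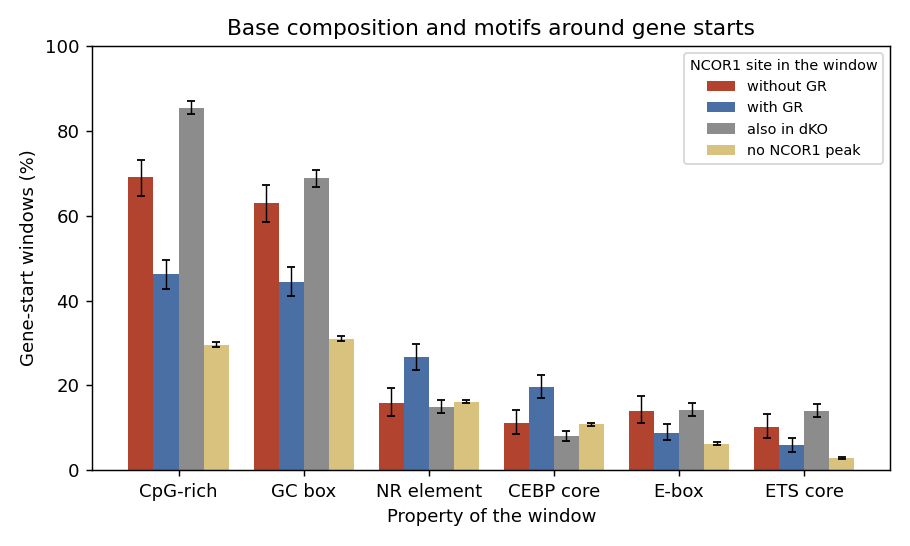
Share of 300-base gene-start windows (%) that were CpG-rich or held each motif, for windows with an NCOR1 site without GR (484), with GR (869), with a peak also in dKO and with no NCOR1 peak; NR element is the nuclear receptor element and error bars are exact 95% intervals. Windows without GR stand between those with GR and those also in dKO for CpG-rich (69.0%) and GC box (63.0%).

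By nearest gene body within 100 kb, 4839 of the sites without GR were assigned to 3544 protein-coding genes, 16.2% of the 21900 in the RefSeq table. At least 1 of the 20103 NCOR1 sites that met both NCOR1 conditions was assigned to 7585 genes (34.6%). Of the 3544, 2262 also held NCOR1 sites with GR, and 1282 held none. Most of the 1282 had a single NCOR1 site (1133), and 149 had more. Arhgef12, a guanine nucleotide exchange factor, had 4 sites, all without GR, the strongest with 26.4 tags. With 3 of 3 without GR were Gfod2 (77.1 tags at the strongest), Sgsm2 (56), Thrap3 (48.7) and Arl4a (45.6); these 5 genes were picked after their values were seen.

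The genes with the most sites without GR differed in how many they had with GR. Cmip had 8 of 15 without GR, with vehicle tag counts of 8.16 to 47.5 and dexamethasone counts of 7.18 to 70.3. Gse1 had 7 of 17, Rora, the clock receptor RORalpha, 7 of 26, Vegfa, the endothelial growth factor, 7 of 17, and Zmiz1, a transcriptional coregulator, 7 of 22. Vegfa had 2 of its 7 within 1000 bp of a start, 38 and 447 bp away, with 29.3 and 22.2 vehicle tags. Arhgef3 (6 of 13), Fars2 (6 of 14) and Fggy (6 of 15) followed, level with 7 other genes at 6. Among those 7, named after their values were seen, Zfhx3 had 6 of 8 without GR and Pank1 and Lrrc8d 6 of 9 each, whereas Stard13 had 6 of 16. Long genes can collect sites by length alone, and length was not corrected for.

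The 14 gene lists hold 311 genes, of which 115 had a site without GR and 212 any NCOR1 site that met both NCOR1 conditions. Over all protein-coding genes these shares were 16.2% and 34.6%. The list genes were thus rich in NCOR1 sites of both kinds, and counts of genes do not speak to a lack of GR. A site counts for its nearest gene within 100 kb, so it can lie far from the gene named. The share of a list's NCOR1 sites that lacked GR is read against 25.6% over all NCOR1 sites. It ran from 0 of 3 at leukocyte markers to 31.3% at corepressor and nuclear receptor genes (30 of 96, interval 22.2 to 41.5%), and every interval contained 25.6%. No list thus stood apart at this number of sites. Hepatocyte identity genes had 97 NCOR1 sites at 25 of 29 genes, the Kupffer cell and other leukocyte markers 3 at 3 of 18, and neuronal genes 13 at 5 of 16. Endothelial, stellate and cholangiocyte markers had 20 at 8 of 18, and ribosomal protein genes 11 at 6 of 24. The hepatocyte identity genes thus held more NCOR1 sites than these other lists. The rule had already removed peaks that overlapped the dKO list, so these counts are partly set by it and do not compare cell types. Gene length was not corrected for.

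**Figure D5:**
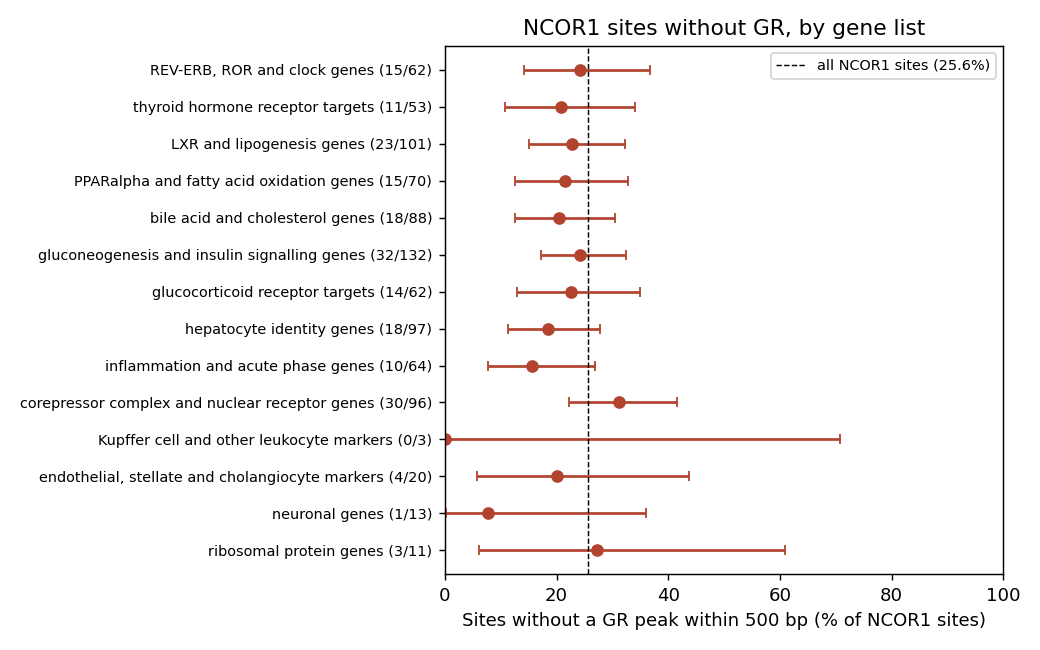
Share of NCOR1 sites without a GR peak within 500 bp (%, x axis) at the genes of 14 lists (y axis, sites without GR over all NCOR1 sites in brackets), with exact 95% intervals and a line at 25.6% for all NCOR1 sites. All intervals cross the line; corepressor and nuclear receptor genes are highest (31.3%).

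At genes of the receptors and corepressors themselves, sites without GR were at 18 of 28 genes. Besides Nr1i2, Esr1, the oestrogen receptor, had 46.7 tags after vehicle and 21.5 after dexamethasone, and Rxra, the common partner of many liver receptors, 41.1 and 15.8. Rxrb, another partner receptor, had 2 NCOR1 sites, both without GR: 23.1 and 12.7 tags after vehicle, 19.5 and 10.2 after dexamethasone, 32.8 kb or more from any GR peak. Of the 30 sites in this list 3 were higher after dexamethasone, beside 24.8% over all sites without GR. That difference was not tested.

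Clock genes, many of them targets of REV-ERB with NCOR1, had 15 of 62 sites without GR (24.2%) at 7 of 19 genes. Nr1d2, which codes for REV-ERBbeta, had 2 NCOR1 sites that met both NCOR1 conditions, and neither had GR. They had 51.5 and 22.8 tags after vehicle and 32.9 and 16.8 after dexamethasone, 748 and 2152 bp from the start, and the nearest GR peak was 32.6 kb from the stronger. Nr1d2 and Rxrb were the 2 list genes with more than 1 NCOR1 site and none with GR. Rora had 34 tags after vehicle and 24.8 after dexamethasone at its strongest, Per2, a clock repressor, 33.2 and 14.1, and Hlf, an output factor of the clock, 30.4 and 25.5.

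Genes of PPARalpha and fatty acid oxidation had 15 of 70 sites without GR (21.4%) at 11 of 27 genes, with a median of 36.9 tags, against 14.9 over all sites without GR. The list's sites with GR had a median of 40.8 against 20.8 over all sites with GR. The strongest was Ehhadh, and Ppara, the receptor itself, had a site with 84.1 tags after vehicle and 41.3 after dexamethasone. Across the list 4 of the 15 were higher after dexamethasone, near the 24.8% over all sites without GR.

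Lipogenic genes and targets of the liver X receptors had 23 of 101 without GR (22.8%) at 12 of 28 genes. Mlxipl, the glucose sensor ChREBP, had 73.4 tags after vehicle and 27.5 after dexamethasone. Elovl6, a fatty acid elongase, had 53.2 and 23.2 at a site 186 bp from its start. Scd1, the stearoyl-CoA desaturase, had 51.8 and 41 at a site 10.5 kb from the gene. Lpcat3, which remodels membrane phospholipids, had 43.9 and 48.2, the one of these 4 that was higher after dexamethasone.

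Bile acid and cholesterol genes had 18 of 88 (20.5%) at 10 of 22 genes. Scarb1, the receptor of high-density lipoprotein, had 54.6 tags after vehicle and 49.2 after dexamethasone. A site 18.5 kb from Fgfr4, the receptor of the bile acid hormone FGF15, had 33.8 and 19.5. A site 22.6 kb from Cyp7a1, which sets the rate of bile acid synthesis, had 30.9 and 33, and Klb, the co-receptor of FGFR4, 29.8 and 33.3. Thyroid hormone receptor targets had 11 of 53 (20.8%), among them the same Cyp7a1 site. Me1, malic enzyme, had 19.7 and 10.6 at a site 125 bp from its start, Slc16a10, a carrier of thyroid hormone, 18.3 and 21.7, and Fbxo21 18 and 16.8.

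Genes of gluconeogenesis and insulin signalling, the pathway the study's title names, had 32 of 132 sites without GR (24.2%) at 19 of 27 genes. G6pc, the glucose-6-phosphatase that releases glucose, had 73.7 tags after vehicle and 53.1 after dexamethasone, 2207 bp from the nearest GR peak. Pygl, liver glycogen phosphorylase, had 52.3 and 32.1, and Pcx, pyruvate carboxylase, 45.6 and 37.9. A site 72.0 kb from Irs2, an insulin receptor substrate, had 50.4 and 41.2. Of the 32 sites 8 were higher after dexamethasone, near the 24.8% over all sites without GR.

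Even genes known as GR targets had NCOR1 sites without GR, 14 of 62 (22.6%) at 10 of 22 genes. A site 55.3 kb from Errfi1, a feedback inhibitor of the EGF receptor, had 46.1 tags after vehicle and 21.3 after dexamethasone. Klf13, a transcription factor, had 39.7 and 27.8. Zbtb16, the zinc finger factor PLZF, had 39.7 and 21.8, and Fkbp5, the chaperone that restrains GR, 27.3 and 20. All 4 were lower after dexamethasone. Of the 14 sites in the list 4 were higher, near the 24.8% over all sites without GR. Inflammation and acute phase genes had 10 of 64 (15.6%, interval 7.76 to 26.9%) at 6 of 24 genes. Hp, haptoglobin, had 58.2 and 54.2 at a site 5.3 kb from the gene, and Irf1, an interferon factor, 57.1 and 40.9 at 19.2 kb. Bcl6, a transcriptional repressor, had 50.6 and 54.4, and Il6ra, the interleukin 6 receptor, 36.3 and 26.4.

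Hepatocyte identity genes had 18 of 97 (18.6%) at 11 of 29 genes. Besides Foxa2 these were Fgg, a fibrinogen chain, with 45.3 tags after vehicle and 49 after dexamethasone, Ahsg, fetuin A, with 44.7 and 40.5, and Hnf4a, a master receptor of hepatocytes, with 43.9 and 35.2. Sites without GR at marker genes of other cells were few. Endothelial, stellate and cholangiocyte markers had 4 of 20, with a median of 12.95 vehicle tags, against 14.9 over all sites without GR. The strongest per gene had 14.6 tags at Sox9, 14.1 at Pecam1 and 11.8 at Epcam after vehicle. After dexamethasone these had 5.55, 9.89 and 22.8. The Sox9 and Epcam sites lay 31.0 and 64.1 kb from the gene. Neuronal genes had 1 of 13, at Syt1 (7.88 and 4.47). Ribosomal protein genes had 3 of 11: inside Rpl8 (10.4 and 15), 34.0 kb from Rpl11 (27.6 and 11.6) and 97.1 kb from Rplp1 (18.6 and 18.6).

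The share without GR was higher on the X chromosome than on the autosomes, a split examined after the values were seen. On X, 120 of 316 NCOR1 sites lacked GR (38.0%, interval 32.6 to 43.6%), against 5029 of 19784 on the autosomes (25.4%). Single autosomes ran from 23.1% to 29.8%. NCOR1 sites on X were also weaker, with a median of 11.5 tags against 19.1. Male mice carry a single X, and whether this bears on the tag counts was not tested. Within strength classes 1 to 5 the shares on X were 52.1%, 40.4%, 33.8%, 19.1% and 0% (0 of 9), beside 39.2%, 33.0%, 28.4%, 23.1% and 14.2% on the autosomes. The intervals were apart in class 1 and overlapped in the others, and the part of strength in the pooled difference was not tested.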

How the data were processed

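The data were 12 ChIP-seq libraries and 1 input library of mouse liver, deposited as 7 peak lists, each for a whole group with its libraries pooled. Chromatin was fixed with 1% formaldehyde for 20 minutes, the NCOR1 antibody was raised against residues 1944 to 2453, and GR was precipitated with 3 antibodies, per the labels' protocols. Trim Galore 0.6.4, BWA 0.7.17, HOMER 4.11, bedtools 2.29.2 and mm10 come from the submitters' processing notes. HOMER findPeaks called peaks with a width of 200 bp, 4-fold over input and over the local 10 kb and p-values of at most 0.0001, per the file headers. The tag count per peak is a signal deposited by the authors, scaled to 10 M tags; the fold over input is a deposited ratio. The findPeaks score, as deposited by the authors, was not used for any result.

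The members and gene lists were chosen with earlier results of these data known. Overlap meant at least 1 bp, checked against bedtools 2.31.1, and GR distance was taken centre to centre. Sites were assigned to the nearest of 21900 protein-coding gene bodies within 100 kb, the shortest gene if several held the site. Starts came from the RefSeq promoter table (GRCm38.p6, 32851 windows), which is not complete. Medians, counts and exact shares were computed in Python 3.11.15 with pandas 2.3.3 and scipy 1.17.1 after the functions had been tested on simulated data. No test was run, because lists pool their libraries and peaks are not replicates. Named genes were those at the 12 strongest sites after vehicle and 6 after dexamethasone, the 8 with most sites, up to 4 per gene list, the 5 highest and 5 lowest ratios of class 5, up to 8 sites at starts, the 3 sites on each side of the limit, and list genes with at least 2 NCOR1 sites and none with GR. Others were picked after their values were seen, and some items are not reported here. Alternatives were other GR distances, overlaps, strength minimums, GR lists, start and gene distances.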

Additional observations from a re-analysis of the deposited data

How the results depend on the processing

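The number of sites without GR was within 1.5 times of 5150 in 8 settings: 5720 at a GR distance of 200 bp, 4578 at 1000 bp, 3803 at 2000 bp, 5043 with an overlap of 100 bp, 5031 with no dKO peak within 500 bp, 3546 at 8-fold over input, 5735 with the 2 control GR lists and 5150 when the dexamethasone list was classified. It was 2403 above the median tag count, 7931 with the 2 vehicle GR lists and 7923 with GR lists of equal length. The share of 25.6% became 28.5% at 200 bp, 22.8% at 1000 bp, 18.9% at 2000 bp, 22.2% at 8-fold over input, 19.8% above the median tag count, 28.5% with 2 control GR lists, 39.5% with 2 vehicle GR lists and 39.4% with GR lists of equal length. Sites near a start without and with GR were 12.6% and 8.28% at 500 bp, 30.2% and 23.4% at 5000 bp, 13.6% and 9.99% at 8-fold over input, 17.6% and 9.95% above the median tag count and 14.8% and 11.8% at a GR distance of 1000 bp. The median log2 ratio was -0.0283 when centred on all shared peaks, -0.57 above the median tag count and -0.34 at a GR distance of 1000 bp. Genes of the lists with a site without GR numbered 90 to 105 under 3 settings, against 115. Of 42 recomputed list shares 40 stayed within their interval; those of endothelial and neuronal genes were 0 above the median tag count. No paired analysis was possible because the libraries of a group were pooled in each list, and no replicate could be left out for the same reason. Depth limits which GR peaks could be called, and the cause of each shift was not tested.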
